A study of Mus musculus with 8 samples.

Results

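The genes described here encode the aminoacyl-tRNA synthetases and the scaffold proteins of the multisynthetase complex, measured by RNA sequencing in lung tissue-resident macrophages of mice with and without lung tumors. They were chosen by symbol: a capital letter for the amino acid followed by "ars", with or without a final 2, together with Eprs, Farsa, Farsb, Qars, Aimp1, Aimp2 and Eef1e1. The rule found 40 of the 12701 genes in the deposited expression table, namely 20 cytosolic synthetase genes, 17 mitochondrial synthetase genes with a symbol ending in 2, and 3 scaffold genes. No measured value entered the rule, and all 40 genes passed the filter on low values.

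Aminoacyl-tRNA synthetases join each amino acid to its own transfer RNA (tRNA), the step that fixes the meaning of the genetic code before the ribosome reads it. In mammals the cytosol and the mitochondrion are served mostly by separate nuclear genes, while the proteins of Gars (glycine) and Kars (lysine) work in both compartments and are counted here with the cytosolic class. Several cytosolic synthetases are held in the multisynthetase complex by Aimp1, Aimp2 and Eef1e1. When amino acids run short, uncharged tRNA activates the kinase GCN2, translation of the transcription factor ATF4 increases, and ATF4 drives many cytosolic synthetase genes together with genes for amino acid synthesis and uptake. Wars, the tryptophan enzyme, is known in addition as a gene induced by interferon gamma.

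Flow cytometry had been used to sort these cells, alveolar macrophages resident in the tissue, from lungs of C57BL/6 mice. Naive wild-type mice carried no tumor (3 libraries), and the other mice had received KP lung tumor cells through the tail vein and were labelled as taken at day 15 (d15, 2 libraries) or day 35 (d35, 3 libraries). The protocol text gives a harvest period of 15 to 30 days, so the later time is uncertain. Whether a group's libraries come from different mice is not stated in the labels, so the p-values below reflect variation among samples that may be purely technical. The d15 libraries are called A and B because their column numbers differ from those in their titles.

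Depth was 27465745 to 39572173 recovered reads per library, and the 40 genes together took 0.293% to 0.325% of them. Mars2 had the fewest reads in a library, 182, which gives a coefficient of variation (CV) from counting alone of 7.41%. In the library with a gene's fewest reads, this counting CV was under 0.5 times the CV over the 8 libraries for 33 of the 40 genes, and for the other 7 it reached up to 65.8% of it (Rars2). All 15 alveolar macrophage markers were present, with a summed level of 68326 to 73482 scaled CPM (CPM are counts brought by the authors to a common library size) in naive, 87885 to 87979 in d15 and 93794 to 115885 in d35 libraries. The 12 monocyte and interstitial macrophage markers summed to 463 to 693, 556 to 650 and 757 to 1307, the 12 endothelial markers to 283 to 369, 194 to 237 and 173 to 226, and the 4 B cell markers found to 10.4 to 15.5, 5.22 to 5.64 and 3.78 to 6.93. The 10 epithelial and tumor markers found summed to 1434 to 1446, 1239 to 1356 and 1205 to 1332, the 7 dendritic cell markers to 144 to 162, 128 to 141 and 175 to 226, and the 8 fibroblast markers to 11.6 to 32.1, 6.79 to 8.74 and 7.11 to 17.1. The sums of the 5 neutrophil and 8 T and NK cell markers found overlapped naive at d35, at 52.9 to 98.4 and 2.71 to 6.64. Gene by gene, limma called 2 of the 5 neutrophil markers higher and 0 lower at d35, with a median log2 fold change of 1.07. Of the 15 alveolar macrophage markers it called 4 higher and 1 lower at d35, with a median of 0.10. Of the 12 monocyte and interstitial macrophage markers 8 were called higher and 0 lower (median 1.40). Of the 12 endothelial markers 8 were called lower and 0 higher (median -0.79), beside 16.2% of all genes called at d35. At d15 the neutrophil sum overlapped naive, and the T and NK sum lay below every naive library. Of 16 genes of stress and tissue dissociation, 3 rose at d15, where limma called 4.37% of all genes, and 2 rose and 1 fell at d35, where it called 16.2%. The part of these markers in the results below was not tested.

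The promoters were examined first for the letters through which the amino acid response is known to act. RefSeq promoters (build GRCm38.p6, 250 bases before to 50 after the start) matched by symbol were used for 29 of the 40 genes, 12 cytosolic, 14 mitochondrial and 3 scaffold. The C/EBP-ATF response element, TGATGNAA on either strand, was found in 4 of the 12 cytosolic promoters (Gars, Iars, Tars and Yars), in 0 of 14 mitochondrial and in 0 of 3 scaffold promoters, against 3.97% of the 32851 promoters in the table. The E-box CACGTG was found in Farsb, Iars and Tars and in the mitochondrial gene Ears2, against 7.15% of all promoters. The STAT element TTCNNNGAA was found in Kars, Nars2 and Eef1e1, against 8.30%. None of the response elements printed here overlapped a match of the other motifs. A match describes letters only, and no match says only that these letters are not in the window. The sequences around each response element are shown because the fold changes of these 4 genes are given as a group below. Each is 30 bases on the strand of the gene, with the match in capitals and the position of its first base counted from the start site.
Gars, chr6:55037960-55037989, plus strand, position -30: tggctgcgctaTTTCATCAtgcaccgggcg
Iars, chr13:49682126-49682155, plus strand, position 8: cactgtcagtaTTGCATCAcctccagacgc
Tars, chr15:11399655-11399684, minus strand, position -15: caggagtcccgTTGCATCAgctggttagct
Yars, chr4:129189895-129189924, plus strand, position 4: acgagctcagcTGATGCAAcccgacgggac
In Gars, Iars and Tars the match reads TTTCATCA or TTGCATCA, the reverse complement of the motif as written, and in Yars it reads TGATGCAA. Iars and Tars also held the E-box.

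Levels were compared between genes per kilobase of transcript. Cytosolic synthetase genes had a median of 31.2 scaled CPM per kilobase over the 8 libraries, from 16.6 for Cars (cysteine) to 145 for Gars. Mitochondrial synthetase genes had a median of 8.65, from 0.748 for Mars2 (methionine) to 103 for Lars2 (leucine). Mars2 is annotated as a single exon of 11294 bases, which lowers its value per kilobase. The scaffold genes lay between 12.9 (Aimp2) and 18.2 (Aimp1) scaled CPM per kilobase. The cytosolic class held 71.3% of the summed level of the 40 genes, the mitochondrial class 26.5% and the scaffold class 2.23%.

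**Figure D1:**
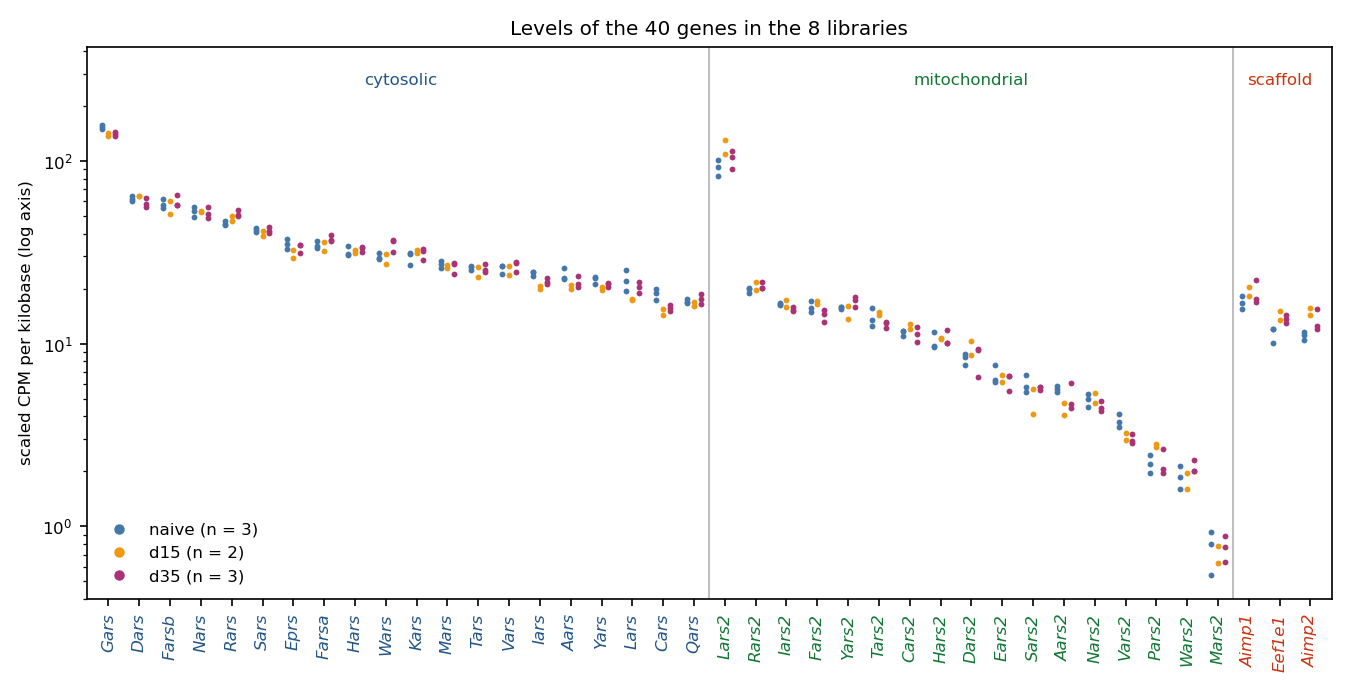
Level of each gene in each library, in scaled CPM per kilobase of transcript on a log axis, by class and ordered by the naive mean. Each point is a library. Gars and Lars2 stand highest in their classes, and the points of a gene lie close together whatever the group.

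For 14 amino acids a cytosolic and a mitochondrial gene with matching symbols were measured, and only these pairs were compared. Eprs, Farsa and Farsb were not paired with Ears2, Pars2 and Fars2, because their symbols do not match. In naive macrophages the cytosolic gene had the higher level per kilobase in 13 of the 14 pairs, with ratios from 1.42 for tyrosine (Yars over Yars2) to 35.9 for methionine (Mars over Mars2). The asparagine pair had a ratio of 10.7 and the tryptophan pair 16.0. The exception was leucine. Lars stood at 22.2 and Lars2 at 92.1 scaled CPM per kilobase in naive cells, a ratio of 0.241, and at 17.5 and 120 at d15.

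The genes varied little over the 8 libraries. The ratio of the highest to the lowest library had a median of 1.27 over the 40 genes, from 1.11 (Hars) to 1.72 (Mars2), and was under 1.5 for 35 of them (87.5%). Over all 11273 genes tested the median was 1.49 and 51.3% were under 1.5. Among the 8821 genes with a mean at or above that of the lowest of the 40, the median was 1.40 and 63.8% were under 1.5. The synthetase and scaffold genes thus lay on the steadier side of the table, with every ratio under 2. Neither comparison set was matched to the 40 genes on level, and the part of abundance was not tested.

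At d15 none of the 40 genes passed the test against naive. With limma and Benjamini-Hochberg adjustment over all genes tested, 0 of 40 were called at an adjusted p of 0.05, where 4.37% of all genes were called. At an unadjusted p under 0.05 there were 8 of 40 (20%), 3 higher and 5 lower, against 26.2% of all genes. The quasi-likelihood test of edgeR also called 0, against 3.7% of all genes. DESeq2 called 4 of the 40, with Lars2 higher and Iars, Cars and Lars lower, against 12.9% of all genes. In the authors' deposited table of this comparison, all 40 genes were present, 0 were below an FDR of 0.05, 4 had a p under 0.05, and 39 had the same sign as in limma. The 95% confidence interval lay within a 1.5-fold change in either direction for 35 of the 40 genes (87.5%) and within 2-fold for all 40, against 64.0% and 92.5% of all genes. The libraries of the 2 groups did not overlap for 8 genes higher and 9 lower at d15, beside 25.9% and 22.3% of all genes.

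Among the cytosolic genes, Cars and Iars had the smallest p-values at d15. Cars measured 56.2, 64.2 and 60.8 scaled CPM in the naive libraries and 50.1 and 46.1 at d15. Every d15 library was below every naive library, with a log2 fold change of -0.32 (SE 0.09, limma adjusted p = 0.0624). Iars, the isoleucine enzyme, measured 104, 109 and 109 in naive and 91.2 and 87.9 at d15, again without overlap, with a log2 fold change of -0.26 (SE 0.07, limma adjusted p = 0.0654). Iars has a processed pseudogene, Gm4849, 96.0% identical over 1656 bases, so some of its reads may have been assigned elsewhere. Lars measured 76.9, 87.6 and 101 in naive and 70.0 and 69.3 at d15, and Aars, the alanine enzyme, 130, 150 and 131 against 120 and 114. Both were lower at d15 without overlap, with log2 fold changes of -0.33 and -0.22 and limma adjusted p-values of 0.0926 and 0.153. These 4 genes made up all of the cytosolic genes at an unadjusted p under 0.05.

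The log2 fold change was below 0 for 17 of the 20 cytosolic genes at d15, against 48.1% of all genes, with a median of -0.06 against 0.01 for all genes. Of these 17, 10 were below 0 under every alternative run, and Farsa, Farsb, Hars, Nars, Tars, Vars and Wars changed sign under at least 1. The sum over the class was 2255 ± 45.3 scaled CPM in naive (SD, n = 3) and 2116 ± 57.0 at d15 (SD, n = 2). The sums were 2209, 2256 and 2300 in naive libraries and 2156 and 2076 at d15, so the groups did not overlap. The 4 genes with a response element printed above had log2 fold changes at d15 of -0.13 (Gars), -0.26 (Iars), -0.08 (Tars) and -0.16 (Yars), none of which passed the test.

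**Figure D2:**
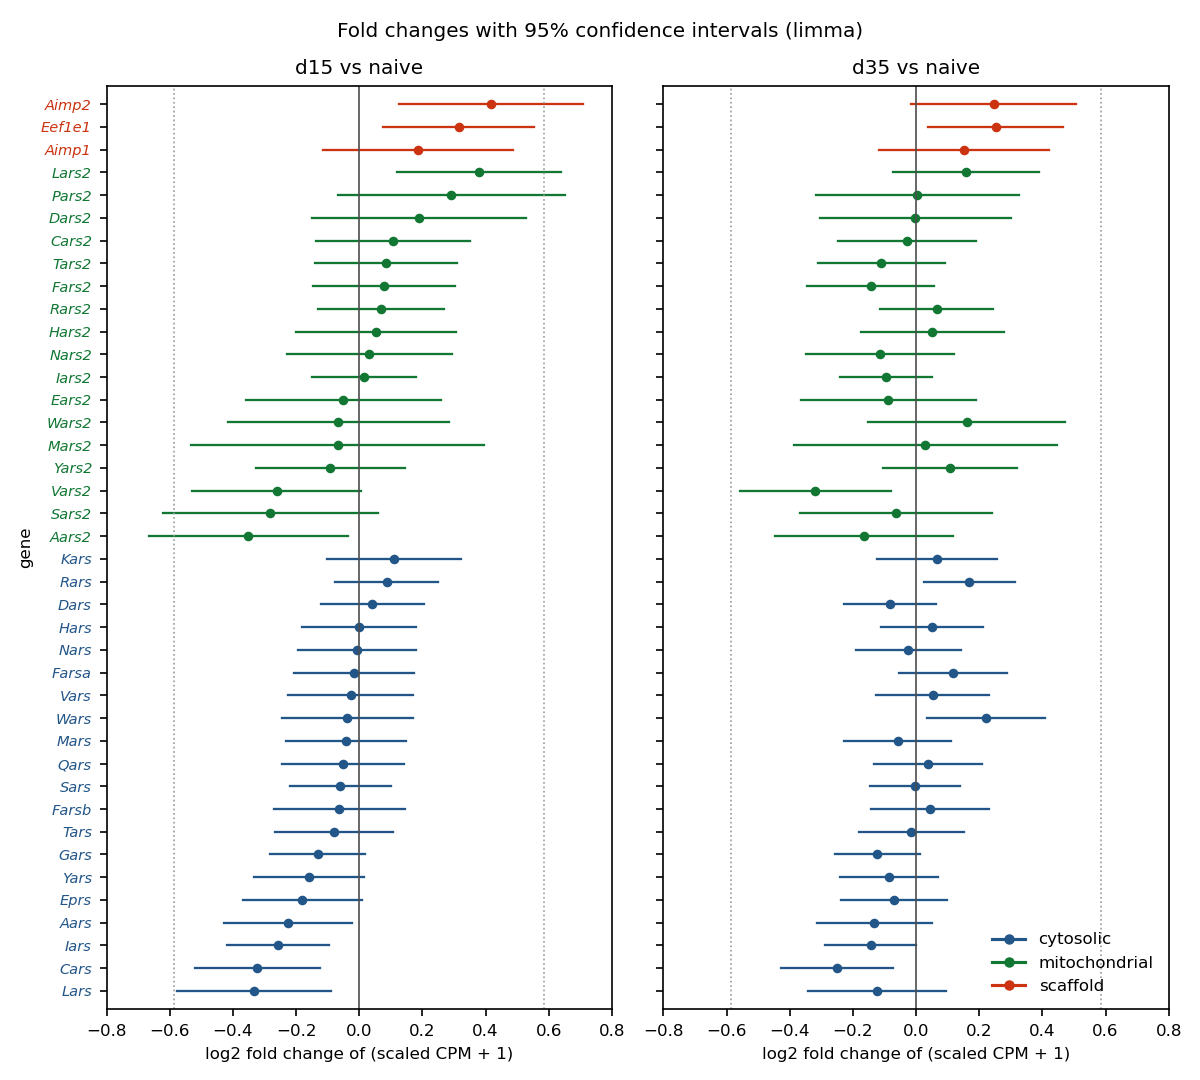
Log2 fold change of scaled CPM + 1 against naive at d15 (left) and d35 (right) for each gene, with the 95% confidence interval from limma. Dotted lines mark a 1.5-fold change. Most cytosolic genes lie left of 0 at d15 and the 3 scaffold genes right of it, and no gene passed the adjusted threshold in either comparison.

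Mitochondrial genes had no common direction at d15. The log2 fold change was above 0 for 10 of the 17, with a median of 0.03. Lars2 was the member with the smallest p of its class and also the most abundant. It measured 392, 360 and 324 scaled CPM in naive and 427 and 509 at d15, higher without overlap, with a log2 fold change of 0.38 (SE 0.12, limma adjusted p = 0.0799). Aars2, the mitochondrial alanine enzyme, measured 18.3, 19.7 and 18.9 in naive and 15.8 and 13.6 at d15, lower without overlap, with a log2 fold change of -0.35 (adjusted p = 0.150 in limma). Lars2 set the sum of the class. The mitochondrial sum was 778 ± 41.5 in naive and 891 ± 47.0 at d15, but without Lars2 it was 419 ± 8.40 and 424 ± 10.8 (SD, n = 3 and 2).

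The ratio of the cytosolic to the mitochondrial sum accordingly moved in part with Lars2. It was 2.91 ± 0.21 in naive, 2.38 ± 0.19 at d15 and 2.75 ± 0.20 at d35 (SD, n = 3, 2 and 3). Without Lars2 it was 5.38 ± 0.20, 4.99 ± 0.01 and 5.46 ± 0.27. The d15 libraries then stood at 5.00 and 4.99, still below the naive ones at 5.15, 5.45 and 5.54. The leucine pair also diverged most at d15, since Lars was lower and Lars2 higher, a difference of -0.71 between their log2 fold changes. In 8 of the 14 pairs the cytosolic gene had the lower log2 fold change at d15, in 7 of 14 at d35, and in 4 of 14 between the times. The pairs thus showed no common shift between the compartments against naive.

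**Figure D3:**
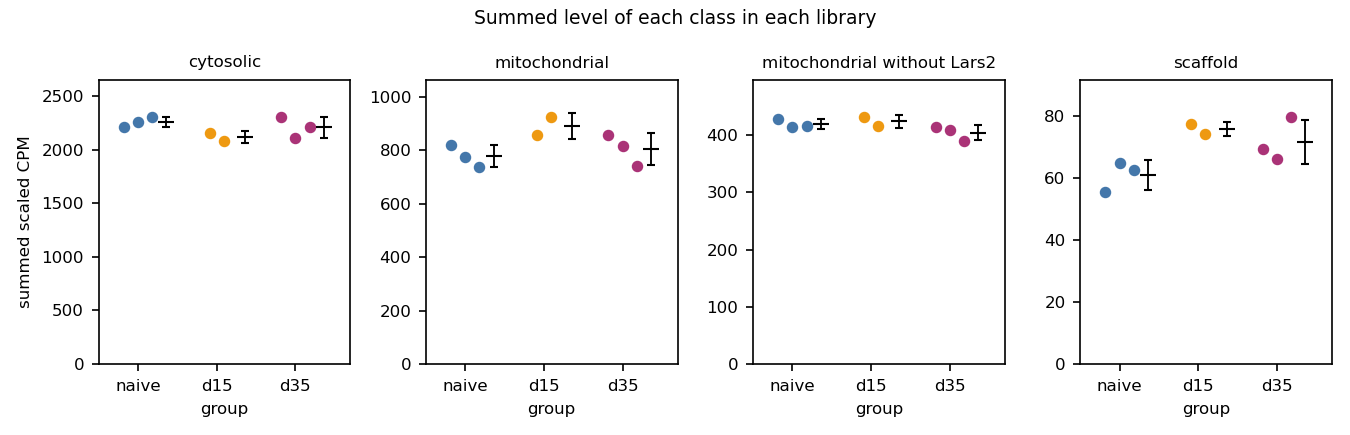
Summed scaled CPM of each class in each library by group, with the axis starting at 0. Points are libraries, and the black bar and whiskers give the mean and SD. The mitochondrial sum is higher at d15 with Lars2 (left of the pair of mitochondrial panels) and level without it.

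The 3 scaffold genes were all higher at d15. Aimp2 measured 12.4, 13.8 and 13.1 scaled CPM in naive and 18.5 and 17.1 at d15, with a log2 fold change of 0.42 (SE 0.13, limma adjusted p = 0.0836). Eef1e1 measured 25.8, 30.7 and 30.7 in naive and 38.4 and 34.3 at d15, with a log2 fold change of 0.31 (SE 0.11, limma adjusted p = 0.101). Aimp1 measured 17.5, 20.52 and 18.9 in naive and 20.53 and 22.9 at d15, with a log2 fold change of 0.19 (adjusted p = 0.412 in limma). In all 3 genes the d15 libraries lay above the naive ones, in Aimp1 only just. The sum of the 3 was 61.1 ± 4.88 in naive and 75.9 ± 2.33 at d15, and its ratio to the cytosolic sum was 0.0271 and 0.0359. None of the 3 passed the test.

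Transcript length moved with these values. Over all 11217 genes with a length, Pearson's correlation across genes between the log2 fold change and log2 transcript length was -0.37 at d15 and -0.29 at d35, and over the 40 genes it was -0.35 and -0.36. Without the 3 scaffold genes, over 37 synthetases, it was -0.19 and -0.22. Genes are not independent replicates, and the points of a comparison share libraries. The median length was 1185 bases in the scaffold class, 2870 in the cytosolic, 3336 in the mitochondrial and 3078 over all genes tested. When the trend on length was removed within each library, the scaffold median at d15 went from 0.31 to 0.22 and at d35 from 0.25 to 0.04. Aimp1, with 1126 bases, went from 0.19 to -0.02 at d15, and Aimp2, with 1185, from 0.42 to 0.22. Eef1e1, with 2553 bases, moved little, from 0.31 to 0.28 at d15 and from 0.25 to 0.24 at d35. The cytosolic median at d15 was -0.06 before and -0.07 after, and that of the mitochondrial genes 0.03 before and after. Cars (-0.31) and Lars2 (0.42) also moved little, while Aars, with 5750 bases, went from -0.22 to -0.11. After the correction the correlation over the 40 genes was 0.09 at d15 and 0.28 at d35, so at d35 it had the opposite sign. No gene of the 40 was called by limma after this correction, and 9 at d15 and 5 at d35 had an unadjusted p under 0.05.

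**Figure D4:**
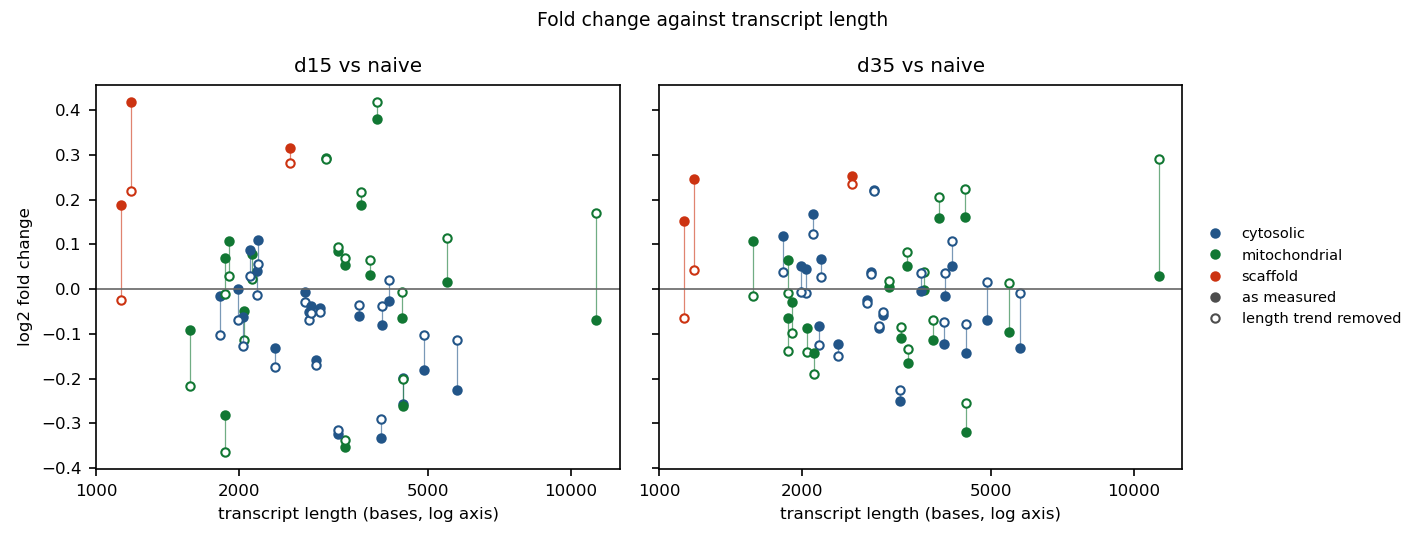
Log2 fold change against transcript length on a log axis for the 40 genes at d15 (left) and d35 (right). Filled points are as measured, open points are after the trend on length was removed, and a line joins both values of a gene. The 2 shortest genes, Aimp1 and Aimp2, move farthest down.

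Gene overlap limits some of these values, because the library kit does not mark strand and 16 of the 40 genes share exon bases with a gene on the opposite strand. Aimp2 shares 487 bases with Eif2ak1, an eIF2 kinase with a mean of 104 scaled CPM against 15.3 for Aimp2. Eif2ak1 had log2 fold changes of -0.03 at d15 and 0.02 at d35, neither of which was called. Iars2 shares 2034 bases with Rab3gap2, Mars 68 with Ddit3, and Hars and Hars2 share 195 with each other. On its own strand Aars shares 1326 bases with Exosc6, a gene that is not in the expression table. How reads in such stretches were assigned is not given in the sources used here.

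At d35 again none of the 40 genes passed the test against naive. Limma called 0 of 40, where 16.2% of all genes were called, with 5 of 40 (12.5%) at an unadjusted p under 0.05 against 32.4% of all genes. The quasi-likelihood test of edgeR called 0, against 15.6% of all genes, and DESeq2 called 2, Cars and Vars2, both lower, against 21.4% of all genes. Libraries did not overlap for 5 genes higher and 5 lower at d35, beside 20.7% and 15.9% of all genes. The 95% confidence interval lay within a 1.5-fold change for all 40 genes, against 68.7% of all genes tested. The d15 and d35 comparisons share the naive libraries, so their values are given side by side only.

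Cars measured 52.6, 50.6 and 48.5 scaled CPM at d35, below every naive library, with a log2 fold change of -0.25 (SE 0.08, limma adjusted p = 0.0563), next to -0.32 at d15. Vars2, the mitochondrial valine enzyme, measured 18.3, 16.4 and 15.6 in naive, 14.4 and 13.2 at d15 and 12.6, 14.1 and 13.0 at d35. Its log2 fold change at d35 was -0.32 (SE 0.11, limma adjusted p = 0.0684), and the naive libraries were above those of both other groups. Fars2, the mitochondrial phenylalanine enzyme, had a log2 fold change of -0.14 with overlapping groups (limma adjusted p = 0.302). Eef1e1 measured 34.7, 33.0 and 36.5 at d35, above naive, with a log2 fold change of 0.25 (adjusted p = 0.0997 in limma), and Aimp2 14.8, 14.3 and 18.3, with 0.25 (limma adjusted p = 0.175).

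Wars and Rars were the cytosolic genes with a higher level and an unadjusted p under 0.05 at d35. Wars measured 83.6, 81.7 and 88.6 scaled CPM in naive, 77.2 and 87.9 at d15 and 103, 89.5 and 105 at d35. Every d35 library lay above every naive and d15 library, with log2 fold changes of 0.22 against naive (SE 0.08, limma adjusted p = 0.0962) and 0.26 against d15 (SE 0.09, limma adjusted p = 0.130). Rars, the arginine enzyme, measured 98.4, 95.5 and 94.2 in naive and 113, 106 and 105 at d35, with a log2 fold change of 0.17 (adjusted p = 0.102 in limma). Class medians at d35 were -0.02 for cytosolic and -0.03 for mitochondrial genes, against -0.0022 for all genes.

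**Figure D5:**
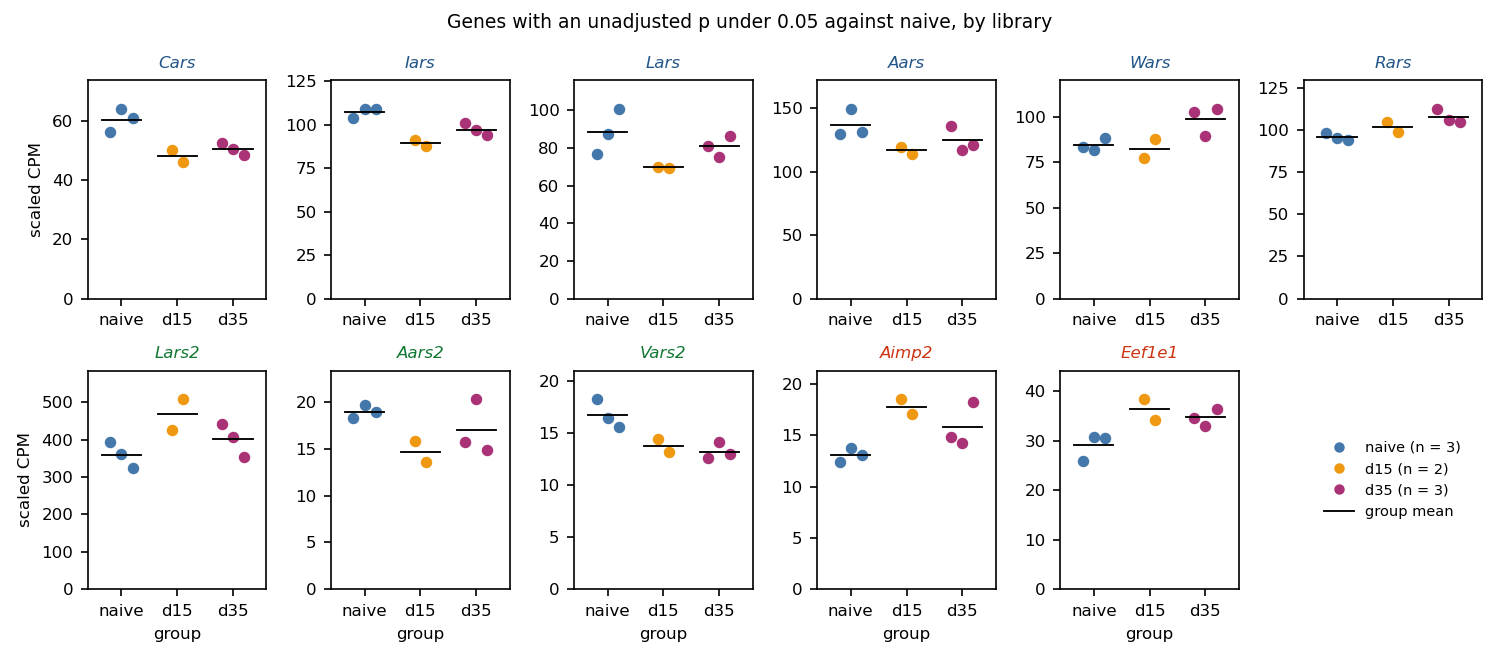
Scaled CPM in each library of the 11 genes with an unadjusted p under 0.05 against naive in at least 1 comparison, with axes starting at 0. Points are libraries and lines are group means. Cars, Iars and Vars2 lie below naive at both times, Lars2, Aimp2 and Eef1e1 are highest on average at d15, and Wars and Rars are highest at d35.

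Between the times, the comparison of d35 with d15 tested the difference of the responses directly. Limma called 0 of the 40 genes, where 7.39% of all genes were called, and Wars alone had an unadjusted p under 0.05. The quasi-likelihood test of edgeR and DESeq2 also called 0, against 7.34% and 12.1% of all genes. The cytosolic median was 0.08, with 16 of 20 genes above 0, and the mitochondrial median was -0.06, with 12 of 17 below 0. Over all genes 50.4% were below 0. Of the 12 mitochondrial genes, 4 changed sign under at least 1 alternative. The d15 libraries here are those of the comparison of d15 with naive, so the 2 results are not independent. Lars (0.21, limma adjusted p = 0.306), Fars2 (-0.22, limma adjusted p = 0.230) and Tars2 (-0.19, limma adjusted p = 0.304) had the next smallest p-values.

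Structural classes and the complex were described in the same way. The 19 class I and 18 class II synthetases, which differ in the fold of the catalytic domain, had median log2 fold changes of -0.05 and -0.0033 at d15 and of -0.03 and -0.02 at d35. Eprs was counted in class I only. The 8 synthetases of the multisynthetase complex had medians of -0.05 at d15 and -0.06 at d35, and the 3 scaffold proteins that hold them 0.31 and 0.25.

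The other genes of the ATF4 and amino acid response were read from a list of 28, of which 22 were tested. At d15 limma and edgeR called 1 lower and 0 higher, where limma called 4.37% of all genes. In limma 10 of the 22 had an unadjusted p under 0.05, against 26.2% of all genes. DESeq2 called 3 lower (Asns, Trib3 and Slc3a2) and 2 higher (Phgdh and Eif4ebp1), and limma on only the naive and d15 libraries called 2 lower (Asns and Trib3) and 2 higher (Phgdh and Eif4ebp1). The gene that fell in limma was Trib3, a pseudokinase induced by ATF4, at 4.76, 5.92 and 6.10 scaled CPM in naive and 2.23 and 2.77 at d15, with a log2 fold change of -0.91 (adjusted p = 0.0263 in limma). Trib3 did not pass when naive replicate 2 (adjusted p = 0.106), naive replicate 3 (0.0731), d15 replicate A (0.137) or d15 replicate B (0.166) was left out. Atf4 itself measured 98.5, 110 and 106 in naive, 89.6 and 86.6 at d15 and 86.7, 91.4 and 111 at d35, with log2 fold changes of -0.25 at d15 and -0.13 at d35 and limma adjusted p-values of 0.165 and 0.371. Asns, asparagine synthetase and a standard target of the response, had log2 fold changes of -0.88 and -0.55, with limma adjusted p-values of 0.0820 and 0.149.

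At d35, 2 genes of this list rose and 3 fell in limma, 5 of 22 beside 16.2% of all genes, with a list median of -0.09. An unadjusted p under 0.05 in limma was found for 10 of the 22, against 32.4% of all genes. Slc7a11, the cystine and glutamate exchanger, rose from 5.93, 10.0 and 6.41 scaled CPM in naive to 43.5, 18.8 and 27.6 at d35, 1.82 on the log2 scale (adjusted p = 0.00266 by limma). Slc7a5, a leucine transporter, fell from 92.9 ± 3.56 to 61.7 ± 9.64 (SD, n = 3 each, limma adjusted p = 0.00551). Phgdh, the first enzyme of serine synthesis, fell with a log2 fold change of -0.31 (adjusted p = 0.0283 in limma). Xpot, which carries tRNA out of the nucleus, fell with a log2 fold change of -0.22 (adjusted p = 0.0425 in limma), and Ddit3, a transcription factor of the stress response, rose with 0.49 (limma adjusted p = 0.0478). Slc7a11 and Slc7a5 passed under all 20 alternatives run. Phgdh did not pass without naive replicate 1 (adjusted p = 0.0675), 2 (0.102) or 3 (0.0589) or d35 replicate 1 (0.0827). Xpot did not pass under 11 of the 20 alternatives (adjusted p = 0.0517 to 0.346 in limma), namely with any of the 8 libraries left out, with only the naive and d35 libraries, with the replicate block (0.0844) and with the length trend removed. Ddit3 did not pass under 14 of the 20 (adjusted p = 0.0511 to 0.278 in limma or limma-voom), among them 7 of the 8 libraries left out, both other filters, the replicate block (0.0638) and removal of the length trend. Between the times Slc7a11 and Slc3a2, its partner chain, were called higher at d35 and Phgdh lower, with limma adjusted p-values of 0.00736, 0.0435 and 0.00229. The call of Slc7a11 was lost without d15 replicate A (0.0730), and that of Slc3a2 without naive replicate 2 or 3, either d15 replicate, or d35 replicate 1 or 3, with only the d15 and d35 libraries, with limma-voom and with total reads as the library size (0.0535 to 0.303). The 5 list members called at d35 were thus 2 higher and 3 lower.

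Of the 16 genes of the eIF2 kinases and eIF2 control that were tested, limma, edgeR and DESeq2 called 0 at d15 (2 had an unadjusted p under 0.05), and in limma 1 fell at d35. That gene was Gcn1, the activator of the kinase that senses uncharged tRNA, at 48.6 ± 3.10 in naive and 35.2 ± 4.93 at d35 (SD, n = 3 each, log2 fold change -0.46, limma adjusted p = 0.0208), and it did not pass without naive replicate 2 (0.0828) or 3 (0.0618). Gcn1 was not tested with the length trend removed. Of 12 genes of cytosolic elongation and tRNA delivery, limma and edgeR called 0 at d15 (4 had an unadjusted p under 0.05 in limma) and DESeq2 called 2 higher, and at d35 Eef1g, an elongation factor subunit, rose (log2 fold change 0.38, limma adjusted p = 0.0162) and Xpot fell. Eef1g did not pass without naive replicate 2 (0.0611) or d35 replicate 1 (0.0511). Eef1a1, the factor that takes charged tRNA to the ribosome, had log2 fold changes of 0.30 at d15 (limma adjusted p = 0.0659) and 0.04 at d35. None of 19 mitochondrial translation factors was called by limma or edgeR in any comparison, and DESeq2 called 1 lower at d35. In limma 0 of them had an unadjusted p under 0.05 at d15, 1 did at d35, and 1 did when d35 was set against d15. Tufm, the mitochondrial counterpart of Eef1a1, measured 40.3 ± 3.71 in naive, 44.1 ± 0.18 at d15 and 43.9 ± 1.75 at d35 (SD, n = 3, 2 and 3).

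The 12 genes of the interferon gamma list are given beside Wars. Of these, 1 rose at d15 and 10 rose at d35, where limma called 4.37% and 16.2% of all genes, with list medians of 0.35 and 0.90. The d15 count was 0 when any naive or d15 library was left out, with limma-voom and with the length trend removed, and 5 without d35 replicate 2 or with only the naive and d15 libraries, and the d35 count was 8 to 11. Gbp2, a guanylate-binding protein, measured 38.5, 36.9 and 41.3 scaled CPM in naive, 63.2 and 60.5 at d15 and 118, 73.7 and 119 at d35 (log2 fold change 1.36 at d35, limma adjusted p = 0.000610). Within d35, replicate 2 had the lowest value of Gbp2 and also the lowest value of Wars, 89.5 against 103 and 105. Its sum of the cytosolic synthetase genes was the lowest too, 2108 against 2303 and 2206, so a low value there was not particular to Wars. The same library had the lowest sum of the monocyte and interstitial macrophage markers, 757 against 1307 and 1137, of the alveolar macrophage markers, 93794 against 115885 and 98910, and of the neutrophil markers, 52.9 against 98.4 and 71.5, and their part in the values of Wars was not tested. Without that replicate Wars was called at d35, with a log2 fold change of 0.29 (adjusted p = 0.0364 in limma). Leaving out the lowest library of a group raises its mean by construction, and calls over all genes went from 16.2% to 20.3%. Cxcl9, a chemokine, was 2.53 in naive and 26.2 at d35 on average, with a log2 fold change of 2.79 (adjusted p = 0.000875 in limma). The change of Wars, 0.22, was smaller than the median of this list and did not pass the test.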

How the data were processed

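Per the submitters' processing notes, reads were handled with STAR 2.5, the mm10 build and edgeR, with no version given. How reads were counted (program, annotation, strand) is not given in the sources used here. Per the labels' protocols, RNA of 20000 sorted cells was used and 1 ng entered a SMART-Seq v4 kit. The deposited expression table holds a scaled signal per gene made by the authors from reads: taken as (reads + 0.5) times a library factor, 100% of values came out as whole reads within 0.001, with column sums of 952725 to 1067620. It is called scaled CPM here. The authors' deposited table of d15 against naive has, per the file headers, p-values, a test score and log2 fold changes.

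Limma 3.58.1 (R 4.3.3) fitted log2(value + 1) with a trend on intensity; this scale understates changes of low genes, for 11273 genes with at least 1 in at least 2 libraries, with the group as the only term, all 8 libraries (5 residual degrees of freedom) and Benjamini-Hochberg adjustment at 0.05. It was tested on simulated data. Alternatives were other pseudocounts and filters, TMM scaling, edgeR 4.0.16, DESeq2 1.42.0 and limma-voom on recovered reads, removal of the length trend, fewer samples and a replicate block. Lengths, positions and overlaps came from GENCODE vM21, taking 1 coding transcript per gene. Promoters of 29 of the 40 genes were used, and 1 other is not reported here. The genes, lists, tests and naming rule (the smallest 2 p-values per comparison and class, extreme levels, each amino acid pair, the top 3 of each list and fixed markers) were chosen with earlier results of these data known.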

Additional observations from a re-analysis of the deposited data

How the results depend on the processing

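Under all 19, 20 and 19 alternatives for d15, d35 and the difference of the times, 23, 19 and 25 of the 40 genes kept their direction, and log2 fold changes ranged from -0.49 to 0.51, -0.42 to 0.31 and -0.41 to 0.43. The count of 0 calls at d15 became 4 with DESeq2, 1 (Iars) with only the groups compared, and 0 to 4 when libraries were left out, the 4 (Lars2, Iars, Aimp2 and Cars) without d35 replicate 3. At d35 it became 2 with DESeq2 and 0 to 1 when libraries were left out, the 1 being Wars without d35 replicate 2. Between the times it was 0 throughout. Over all genes, calls at d15 numbered 493 in limma, 1451 in DESeq2 and 12 without d15 replicate B.

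With libraries left out, the cytosolic median ranged from -0.105 to -0.0528 at d15, from -0.0587 to 0.0210 for d35 and from 0.0291 to 0.125 between the times, with the value farthest from 0 without d15 replicate A in the first and last of these. The mitochondrial median ranged from 0.00542 to 0.0625, from -0.0733 to -0.0121 and from -0.0898 to -0.0351. Eef1e1 between the times ranged from -0.143 without d15 replicate B to 0.0185 without d15 replicate A.

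With total recovered reads as the library size, chosen after seeing the data, all genes together had a median of -0.04 (d15), -0.11 (d35) and -0.05 (d35 against d15). The cytosolic median was then -0.115, -0.132 and 0.0243 and the mitochondrial -0.0254, -0.136 and -0.106. Relative to all genes these were -0.07, -0.02 and 0.08, and 0.02, -0.03 and -0.05. Calls became 2 at d15 (Iars and Cars) and 5 at d35 (Gars, Iars, Cars, Vars2 and Iars2), all lower, where 4.52% and 20.5% of all genes were called. The cause was not tested.

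Deviations of same-numbered naive and d35 libraries correlated at -0.01, -0.05 and 0.15, and those of differently numbered libraries at -0.10 to 0.10. The labels do not say whether the numbers mark shared mice or days, and so few correlations cannot decide it. A replicate block for d35 called 0 of the 40 genes and 1460 of all genes against 1824 without it. No paired analysis was possible for d15 because its column numbers differ from those of its titles. With 2 or 3 libraries a group, an absent call does not show that a gene was level.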

Other observations

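As a share of recovered reads, the 40 genes together took 0.322%, 0.325% and 0.319% in naive, 0.307% and 0.308% at d15 and 0.302%, 0.294% and 0.293% at d35, so the groups did not overlap. On the authors' scale the same sums were 3086, 3096 and 3101 scaled CPM in naive, 3092 and 3075 at d15 and 3229, 2991 and 3028 at d35, and d35 overlapped naive. The column sums of the deposited table also differed, from 952725 to 970971 in naive, 997368 to 1006970 at d15 and 1015780 to 1067620 at d35. Whether the share of reads or the scaled level is closer to the amount of these transcripts per cell was not tested.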
